A study of Mus musculus with 20 samples.

Results

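The genes described here are 3 suppressors that are recurrently lost in human mesothelioma (Nf2, Bap1 and Setd2) and 6 genes of the Hippo pathway (Lats1, Lats2, Sav1, Yap1, Wwtr1 and Cyr61). They were chosen by name from the gene annotation of the array, by a rule that uses no measured level, although earlier results of these data were known when they were proposed. They make up 9 of 24105 gene symbols and 11 of 55681 probes. The RNA came from the diaphragm of female C57Bl/6 mice that were injected into the pleural cavity at 8 weeks of age and killed 12 weeks later. All mice received 100 μL of saline with 0.5% bovine serum albumin. The control group received this vehicle alone, the SFA and LFA groups 25 μg of short or long amosite asbestos, and the NTS and NTL groups 5 μg of short or long carbon nanotubes, with 4 mice in each group. A frozen piece of each diaphragm gave 1 RNA sample. SFA was ground from the same amosite as LFA, and asbestos and nanotubes were given at different doses, so material and dose cannot be told apart. The short nanotubes were bought and the long ones were made in a university laboratory, so for nanotubes length and source cannot be told apart.

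The Hippo pathway is a kinase cascade that limits tissue growth. Merlin, the product of Nf2, acts upstream and promotes activation of the kinases LATS1 and LATS2, which work with the scaffold protein SAV1. When active, these kinases phosphorylate the coactivators YAP (Yap1) and TAZ (Wwtr1), which then stay out of the nucleus. When the cascade is off, YAP and TAZ bind TEAD factors on DNA and raise target genes such as Cyr61, a secreted matrix protein. Control of YAP and TAZ is therefore largely on the protein, and an mRNA level does not report it. BAP1 is a nuclear deubiquitinase and SETD2 a histone methyltransferase. Loss of these suppressors in human tumors is mostly by mutation or deletion, which a mRNA array of whole tissue does not read.

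The diaphragm is a sheet of skeletal muscle covered by mesothelium, and the arrays measured the whole tissue, so fewer cells of a type and less RNA per cell cannot be told apart. Between 53.0% and 68.1% of spots per array were well above background. All 12 skeletal muscle markers were measured on these arrays, and the summed level of the list was 12.15 to 12.73 in control, 11.30 to 11.72 in LFA and 11.23 to 11.48 in NTL (log2 relative to the 75th percentile of the array, the scale of all levels below). Of 9 macrophage markers, 7 rose in LFA and 7 in NTL against control, and none of 11 mesothelial markers passed the test in either. The summed mesothelial level was 6.18 to 7.21 in control, 5.98 to 7.38 in LFA and 5.99 to 6.55 in NTL, and the mesothelial marker Calb2 had no probe above the filter on dim probes. None of 7 endothelial and 8 liver markers passed, but all 8 liver markers had a higher mean in every fiber group than in control, with median differences of 2.01 in LFA, 2.14 in NTL, 1.81 in SFA and 3.51 in NTS. The summed liver level was 3.21 to 8.19 in control, 2.37 to 10.95 in SFA, 2.40 to 11.24 in LFA, 3.41 to 12.06 in NTS and 3.97 to 8.61 in NTL, and its part in the results was not tested. The 75th percentile of the raw signal ran from 294 to 996 between arrays. A 5′ to 3′ index, the mean log2 difference between an upstream and a downstream probe over 1139 transcripts, was lowest on 1 array in each group, between −1.38 and −1.16 over those 5 arrays (control 2, SFA 1, LFA 3, NTS 4 and NTL 2). The next lowest array of each group lay between −1.08 and −0.51.

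Against control, Bap1 in NTL was the only member that passed the test. It fell by 0.67 on the log2 scale (SE 0.20, 1.59-fold, limma, adjusted p = 0.0454), and it missed the 2-fold limit that the study used. In LFA the same gene was lower by a similar amount and missed the threshold (−0.71, SE 0.20, adjusted p = 0.0503). None of the other 8 members passed in any of 9 comparisons, with Benjamini-Hochberg adjusted p under 0.05 as the threshold over 36930 probes. For NTL against control, 1 of 9 members stands beside 7.84% of all probes tested. For LFA against control, 0 of 9 stands beside 4.34%, with 2 members (Nf2 and Bap1) at an unadjusted p under 0.05, a cut that 23.9% of all probes met. In NTL 1 member met that cut, beside 23.5% of all probes. These counts are near the background in both comparisons.

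The remaining comparisons gave 0 of 9 members each. The share of all probes that passed was 0% for SFA and 0% for NTS against control, 1.16% for LFA against SFA and 8.78% for NTL against NTS. It was 14.5% for long against short fibers (the mean of LFA and NTL against the mean of SFA and NTS), 0% for LFA against NTL and 0% for the difference of the length effect between asbestos and nanotubes. At an unadjusted p under 0.05 there was 1 member in long against short fibers (Bap1) and 0 in the other 6. Of all probes, 31% met that cut in long against short fibers, 25.1% in NTL against NTS and 12.5% in LFA against SFA. The share was 2.28% for SFA and 3.49% for NTS against control, 1.55% for LFA against NTL and 3.45% for the difference of the length effect. By the methods' test over all 5 groups, which allows unequal variances, 0 of 9 members passed after adjustment, beside 3.74% of all probes, and Bap1 was nearest (adjusted p = 0.0935).

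The median member differed from control by −0.16 in LFA, −0.19 in NTL, −0.01 in SFA and −0.23 in NTS. The median over all probes tested was −0.28, −0.25, −0.10 and −0.06 in the same order. The 2 long-fiber groups thus had a general shift below 0 on this scale, and some changes below are also given relative to it. The list medians below are not given relative to it. All 4 comparisons against control share the same 4 control arrays.

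**Figure D1:**
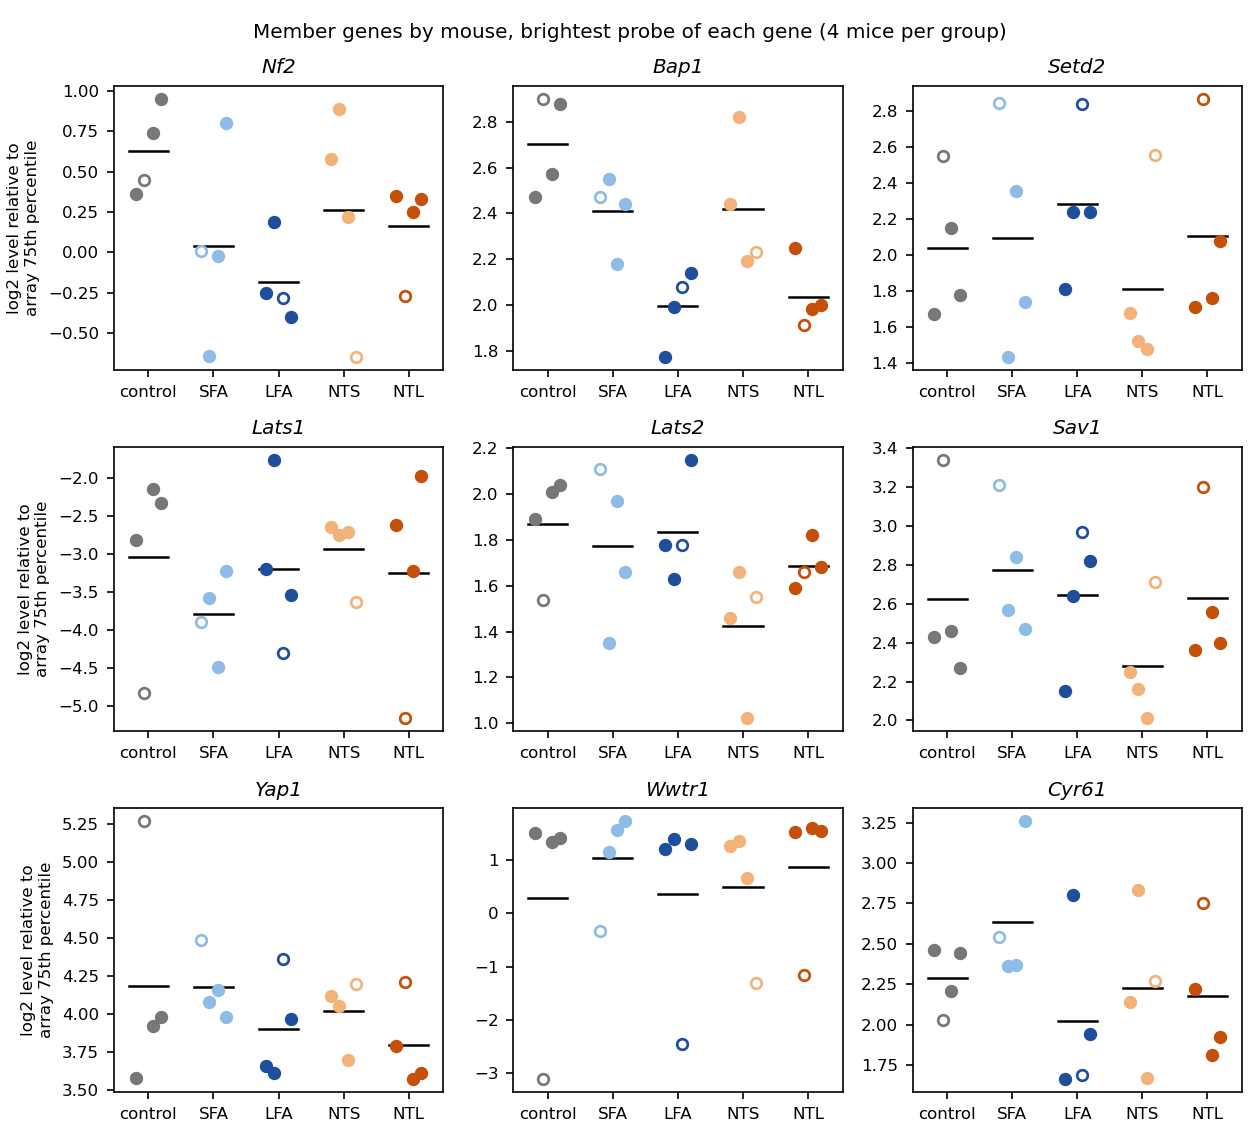
Log2 level relative to the 75th percentile of the array, by mouse, for the brightest probe of each of the 9 genes, in control, SFA, LFA, NTS and NTL (4 mice each). Bars are group means, and open circles mark the array of lowest 5′ to 3′ index in each group. All LFA and NTL points of Bap1 lie below all control points, and the open circles of Wwtr1 lie apart from the other 15 arrays.

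Among the suppressors, Bap1 encodes the nuclear deubiquitinase that removes ubiquitin from histone H2A. Its probe lies at chr14:32072862-32072921 (NCBI37, plus strand), at base 3152 of the transcript. Bap1 was at 2.47, 2.90, 2.57 and 2.88 in the control mice. It was at 1.77, 1.99, 2.08 and 2.14 in LFA and at 2.25, 1.91, 1.98 and 2.0 in NTL. Every LFA and every NTL mouse lay below every control mouse, by a gap of 0.33 for LFA. Such a complete separation downward was seen for 11.6% of probes in LFA and 13.8% in NTL, so it is not rare on these arrays.

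The short-fiber groups lay between control and the long-fiber groups for Bap1. SFA was at 2.47, 2.55, 2.18 and 2.44, and NTS at 2.44, 2.82, 2.19 and 2.23. All 4 LFA mice were below all 4 SFA mice, as was the case for 5.81% of probes, while NTL and NTS overlapped. From high to low, the group means were 2.71 ± 0.22 in control, 2.42 ± 0.29 in NTS, 2.41 ± 0.16 in SFA, 2.04 ± 0.15 in NTL and 2.0 ± 0.16 in LFA (SD, n = 4). NTS and SFA did not differ beyond their spread, nor did NTL and LFA (difference −0.04, 95% interval −0.46 to 0.38). Long against short fibers gave −0.40 (SE 0.14, interval −0.70 to −0.10, limma, adjusted p = 0.0637). The long against short difference in Bap1 was −0.41 for asbestos and −0.39 for nanotubes, although for nanotubes length came with a change of source. Neither passed (limma, adjusted p = 0.407 and 0.234). Relative to the median of all probes, they were −0.24 and −0.13, and long against short fibers gave −0.17. The interval for the asbestos value minus the nanotube value was −0.62 to 0.57.

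The call for Bap1 in NTL was marginal. Of 14 other settings, 4 kept it past the threshold and 10 did not, and it was lost when any of 16 single arrays was left out. It was kept without SFA 2, NTS 2, NTS 3 or NTS 4. The value itself stayed between −0.75 and −0.51 in all of these, and relative to the median of all probes it was −0.42 in NTL and −0.43 in LFA. Arrays lay on 3 slides, unevenly by group. Slide 1 held no SFA or NTL array, slide 3 held no NTS array and 3 of the 4 NTL arrays, and each slide held 1 or 2 control arrays. Within slide 2, NTL differed from control by −0.43, and within slide 3 by −0.61. LFA differed from control by −0.77, −0.91 and −0.58 within slides 1, 2 and 3. Among the short-fiber groups, NTS differed from control by −0.67 within slide 1 and −0.05 within slide 2, and SFA by −0.18 within slide 2 and −0.26 within slide 3. The NTS difference within slide 1 was thus as large as some of the long-fiber differences. Of BAP1 partner genes, such as Asxl1, Hcfc1 and Ogt, 0 of 11 passed in LFA or in NTL, beside 4.34% and 7.84% of all probes. The list medians were 0.18 and 0.12, above the medians of all probes (−0.28 and −0.25). The skeletal muscle markers fell with Bap1 in the same groups, 3 of 12 in LFA and 7 of 12 in NTL, and their part in the Bap1 values was not tested.

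Nf2 encodes merlin, the membrane-associated activator of the cascade. It was measured by a bright probe at chr11:4666761-4666820 and a dim one whose ends span chr11:4682326-4684468 (both minus strand), a genomic distance of 2143 bases, so that the dim probe crosses an intron. On the bright probe, Nf2 was at 0.36, 0.45, 0.74 and 0.95 in control, at −0.25, 0.19, −0.28 and −0.40 in LFA and at 0.35, −0.27, 0.25 and 0.33 in NTL. All LFA and NTL mice were below all control mice, as was the case for 11.6% of probes in LFA and 13.8% in NTL. The gap for NTL was only 0.02. Nf2 differed from control by −0.81 in LFA (SE 0.33, interval −1.50 to −0.12, limma, adjusted p = 0.146) and by −0.46 in NTL (SE 0.33, adjusted p = 0.425). Relative to the median of all probes these differences were −0.54 and −0.21.

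The short-fiber groups spanned a wider range of Nf2 and overlapped with control. SFA was at 0.01, −0.64, −0.02 and 0.80, and NTS at 0.58, 0.89, 0.22 and −0.65. Long against short fibers gave −0.16, with an interval of −0.65 to 0.33. On the dim probe the differences from control were −0.92 in LFA and −0.86 in NTL, of the same sign as on the bright probe, with SE of 0.71 for both. For NTS the 2 probes differed in sign, with −0.37 on the bright probe and 0.47 on the dim one. Long against short fibers gave −1.04 on the dim probe (interval −2.1 to 0.02). That probe was well above background on 15 of 20 arrays, and its lowest value, −7.24, was on the NTL array of lowest 5′ to 3′ index. The Nf2 mouse at −0.27 in NTL was that same array.

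Setd2 encodes a histone methyltransferase that marks transcribed genes. Its probe, at chr9:110520924-110520983 (plus strand), is printed on 10 spots per array, and the spot SD within an array was 0.03 to 0.09, with a median of 0.06. Setd2 was the only member with repeated spots, so this spread cannot be compared with other members. Its pooled SD between mice of a group was 0.51. Control mice were at 1.67, 2.55, 2.15 and 1.78, LFA at 1.81, 2.24, 2.84 and 2.24, and NTL at 1.71, 2.87, 1.76 and 2.08. The groups overlapped throughout. Setd2 differed from control by 0.24 in LFA (interval −0.51 to 1.0) and by 0.07 in NTL (−0.69 to 0.82).

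The highest Setd2 mouse in each of the 5 groups was the array of lowest 5′ to 3′ index. On those 5 arrays Setd2 was between 2.55 and 2.87, above the other 15 arrays, which ran from 1.43 to 2.36. Without them the spread within groups was 0.28 and the difference in LFA was 0.23 (interval −0.32 to 0.77). Of the other enzymes that write or erase histone methylation at the same residue as Setd2, 0 of 11 passed in LFA or NTL against control. Of all probes, 4.34% passed in LFA and 7.84% in NTL. The medians of this list were −0.02 and 0.05. In long against short fibers 1 of the 11 fell, Setmar, which was named after its values were seen (−0.57, limma, adjusted p = 0.0458). Of 36930 probes tested, 2963 passed and were lower in that comparison.

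A further list held 10 other genes that are altered in human mesothelioma. Cdkn2a, which encodes cell cycle inhibitors, rose by 2.75 in LFA (SE 0.45, limma, adjusted p = 0.00276) and by 2.66 in NTL (SE 0.45, adjusted p = 0.00167). Its levels were −2.75 to −0.84 in control, 0.12 to 1.43 in LFA and 0.24 to 1.38 in NTL. It was the only gene of the 10 to pass in either comparison, and the list medians were −0.02 and 0.00.

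**Figure D2:**
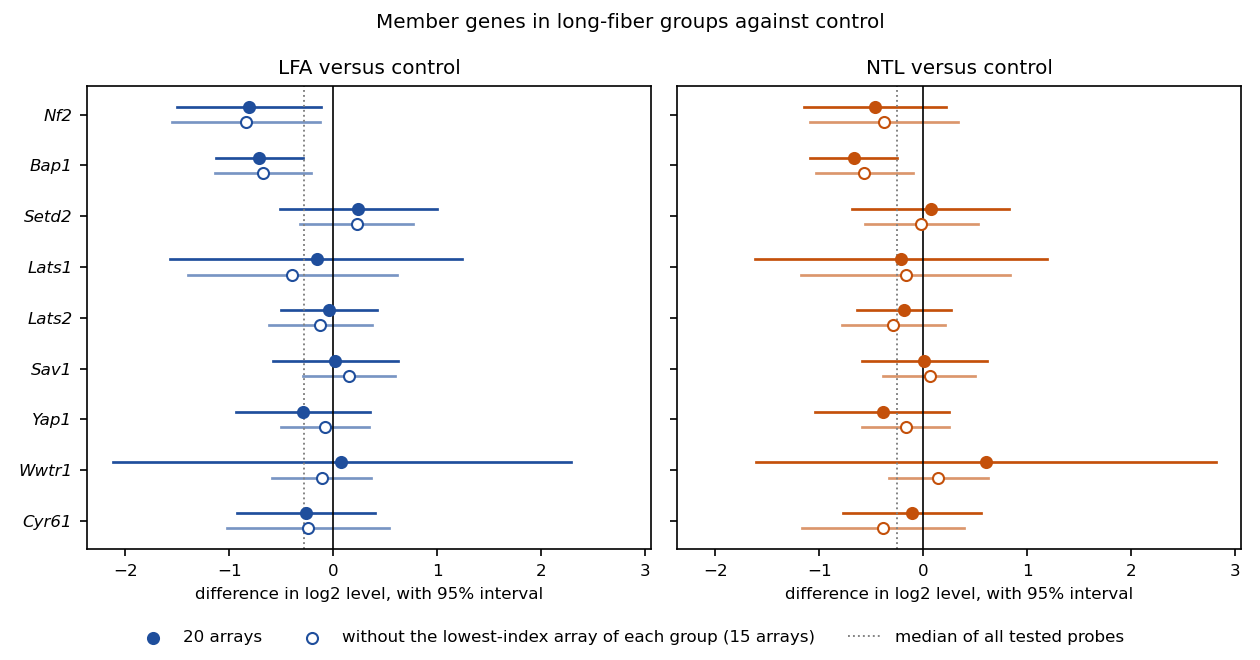
Difference in log2 level from control in LFA (left) and NTL (right) for the 9 genes, with 95% intervals from limma. Filled circles use all 20 arrays, open circles leave out the array of lowest 5′ to 3′ index in each group, and dotted lines mark the median of all tested probes (−0.28 and −0.25). Intervals of Bap1 exclude 0 in both panels, and the interval of Wwtr1 narrows most when 15 arrays are used.

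In the kinase module, none of Lats1, Lats2 and Sav1 passed against control. Lats2, a kinase that phosphorylates YAP and TAZ, was read by a probe at chr14:58308807-58308866 (minus strand). It was at 1.89, 1.54, 2.01 and 2.04 in control, 1.78, 1.63, 1.78 and 2.15 in LFA and 1.59, 1.66, 1.82 and 1.68 in NTL. These values overlapped in all groups, and the differences were −0.04 in LFA (interval −0.50 to 0.42) and −0.19 in NTL (−0.64 to 0.27). A second, dimmer Lats2 probe, at chr14:58341225-58341284, belongs to another transcript of the gene. It gave 0.18 in LFA and 0.02 in NTL, opposite in sign to the first and within the spread of both.

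The lowest Lats2 group was NTS, at 1.46, 1.66, 1.02 and 1.55. It differed from control by −0.45 (interval −0.91 to 0.01, unadjusted p = 0.0544, limma adjusted p of 1), and the dim probe gave 0.21 there. The 2 probes of Lats2 thus differed in sign for NTS as well.

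Lats1, the other kinase of the pair, was measured near the limit of the array. Its probe, at chr10:7432671-7432730 (plus strand), was well above background on 18 of 20 arrays. Lats1 was at −2.82, −4.84, −2.15 and −2.33 in control, −3.20, −1.76, −4.30 and −3.54 in LFA and −2.62, −5.17, −3.23 and −1.97 in NTL. The lowest control and NTL values are the 2 arrays on which it was not well above background. Differences were −0.16 in LFA (interval −1.57 to 1.24) and −0.21 in NTL (−1.62 to 1.19), too wide to bound even a 2-fold change. SFA, at −3.90, −3.58, −4.49 and −3.22, had the lowest mean and differed from control by −0.76 (SE 0.67). Without the 5 arrays of lowest index this was −1.33 (SE 0.46, limma, adjusted p = 0.911).

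Sav1, the scaffold, was read at chr12:71066122-71066181 (minus strand). It was at 2.43, 3.34, 2.46 and 2.27 in control, 2.15, 2.64, 2.97 and 2.82 in LFA and 2.36, 3.20, 2.56 and 2.40 in NTL. Group means were nearly equal, and Sav1 differed from control by 0.02 in LFA (interval −0.58 to 0.62) and 0.01 in NTL (−0.59 to 0.61). In each of the 5 groups the highest Sav1 value was on the array of lowest index. With those arrays left out, the spread within groups went from 0.38 to 0.20, and the intervals became −0.29 to 0.59 in LFA and −0.39 to 0.50 in NTL.

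Of 22 other genes of the cascade and its upstream regulators that were tested, 0 passed in LFA and 1 passed in NTL against control. The list median was −0.24 in LFA and −0.11 in NTL. The gene was Amotl1, an angiomotin family protein that binds YAP, which fell by 1.03 in NTL (SE 0.31, limma, adjusted p = 0.0452). Amotl1 was at −1.59, −0.34, −1.50 and −1.12 in control and at −2.17, −1.95, −2.33 and −2.23 in NTL. The highest control value was on the control array of lowest 5′ to 3′ index. SFA ran from −1.92 to −1.26 and NTS from −2.35 to −1.04, so NTS overlapped with NTL. LFA gave the same difference and did not pass (−1.03, adjusted p = 0.0598). Like Bap1, Amotl1 lost the call in NTL in most settings, 22 of 35. The upstream kinases Stk3 and Stk4 did not pass, with differences of 0.81 and 0.00 in LFA and 0.48 and 0.56 in NTL. Mob1a, the coactivator of LATS kinases, was higher in long than in short fibers (0.87, SE 0.27, limma, adjusted p = 0.0404) and was named after its values were seen. It was 1 of 22 genes to pass there, beside 2391 of 36930 probes that passed and were higher. It missed the threshold in 19 of 33 other settings.

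The coactivators themselves did not pass in any comparison. Yap1, read at chr9:7932025-7932084 (minus strand), was at 3.58, 5.27, 3.92 and 3.98 in control. It was at 3.66, 3.61, 4.36 and 3.97 in LFA and 3.79, 4.21, 3.57 and 3.61 in NTL. A single control mouse, control 2, was far above the others. Yap1 differed from control by −0.29 in LFA (interval −0.93 to 0.35) and −0.39 in NTL (−1.04 to 0.25). Without the array of lowest index in each group, control 2 among them, the differences were −0.08 (−0.50 to 0.34) and −0.17 (−0.59 to 0.25).

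Wwtr1, which encodes TAZ, had the largest pooled SD within groups of the 9 genes, 1.61. Its probe lies at chr3:57259999-57260058 (minus strand) and was well above background on all 20 arrays. Control mice were at 1.51, −3.12, 1.34 and 1.41, SFA at −0.32, 1.16, 1.57 and 1.74, and LFA at 1.21, 1.40, −2.45 and 1.31. NTS was at 1.26, 1.37, 0.66 and −1.31, and NTL at 1.53, −1.16, 1.60 and 1.56. In every group 1 mouse lay well below the other 3, and the low mouse was always the array of lowest 5′ to 3′ index. Among these 5 arrays Wwtr1 did not follow the index, as SFA 1 had the lowest index (−1.38) and the highest Wwtr1 (−0.32).

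On those 5 arrays Wwtr1 ran from −3.12 to −0.32, and on the other 15 from 0.66 to 1.74. Of all probes tested, 3.75% were lower on each of those 5 arrays than on any of the other 15, and 3.53% were higher, as Setd2 and Yap1 were. On all 20 arrays Wwtr1 differed from control by 0.08 in LFA (interval −2.12 to 2.29) and 0.60 in NTL (−1.61 to 2.81). On 15 arrays the spread within groups was 0.23, and the differences were −0.11 (−0.59 to 0.36) and 0.14 (−0.33 to 0.62). A 2-fold change of Wwtr1 in either long-fiber group lies outside these narrower intervals, which rest on 3 mice a group and on a choice of arrays made after seeing the data. The part of RNA quality in these values was not tested.

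**Figure D3:**
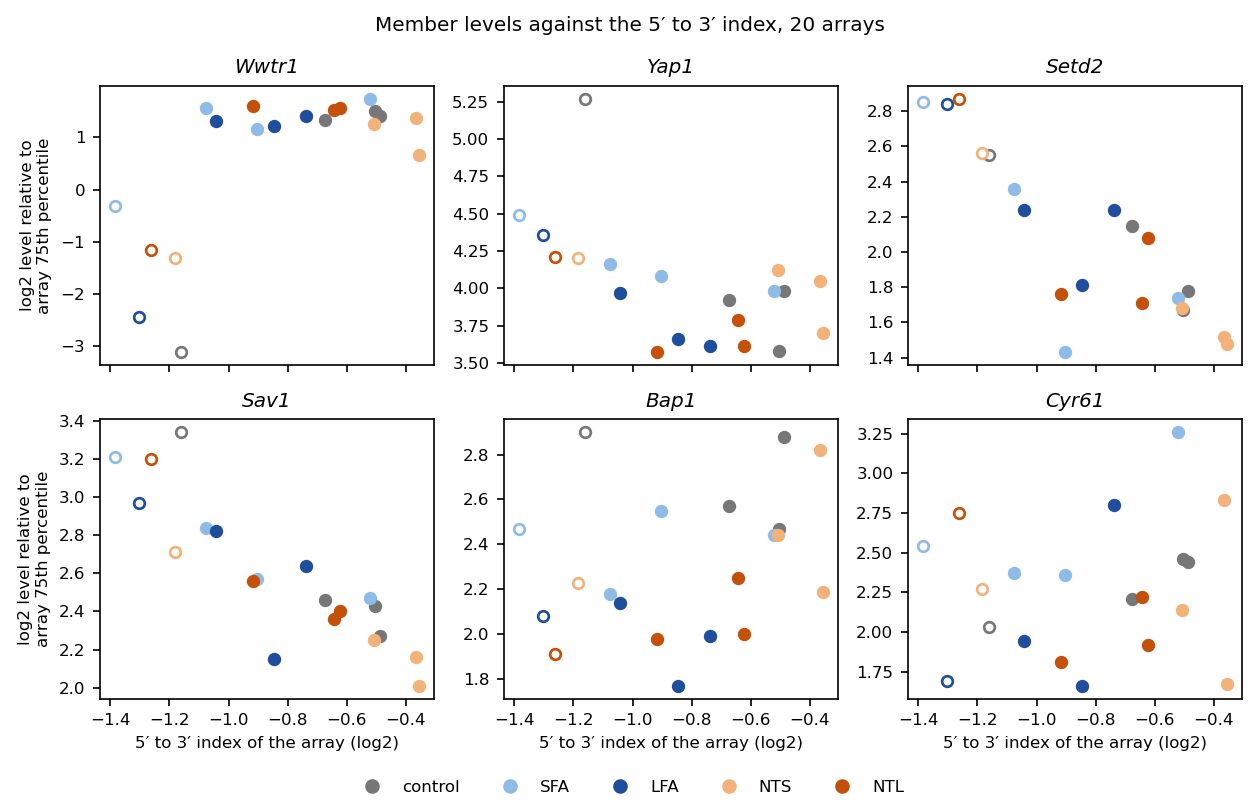
Log2 level of 6 members against the 5′ to 3′ index of the array, 20 arrays, colored by group, with open circles for the array of lowest index in each group. The 5 open circles of Wwtr1 lie between −3.12 and −0.32, those of Yap1 and Setd2 lie above all other arrays, and those of Bap1 and Cyr61 lie among the others.

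Likeness over the 20 arrays was led by genes with the same array pattern. Of 14600 gene symbols well above background on all arrays, those most like Wwtr1 were Gas1 (r = 0.977) and Rab2a (0.97), and those most like Yap1 were Oaz2-ps (0.961) and Zfp30 (0.955). Those most like Sav1 were Ttc21b and Lrrc17 (both 0.959), and those most like Setd2 were Trim39 (0.955) and Usp7 (0.951). Bap1 was most like Lynx1 (0.928) and Ipo13 (0.923), and Nf2 most like Adcy2 (0.932) and Baz1b (0.923). Lats1 was most like Adap2 (0.919) and Atl3 (0.909), and Lats2 most like Urb2 (0.843) and Xpo1 (0.838). Cyr61 had no close neighbour, with Frem2 at 0.734 and Mfsd4 at 0.675. These are Pearson correlations over the same 20 arrays, which differ in brightness, slide and 5′ to 3′ index in the same way for every gene, and they are given as a description.

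TEAD factors, the DNA-binding partners of YAP and TAZ, did not pass either. Differences from control in LFA and NTL were −0.08 and −0.25 for Tead1, −0.24 and −0.13 for Tead2, 0.40 and 0.35 for Tead3, and −0.42 and −0.40 for Tead4. On the list of 8 TEAD factors and cofactors, 1 fell in LFA and 2 in NTL, and the list medians were −0.33 and −0.22. Of all probes tested, 2.06% passed and were lower in LFA and 4.03% in NTL. Vgll2, a TEAD cofactor expressed in skeletal muscle, fell by 1.21 in LFA (SE 0.29, limma, adjusted p = 0.0297) and by 1.38 in NTL (SE 0.29, adjusted p = 0.00837). It was at 5.62, 6.30, 5.70 and 5.43 in control, 4.12, 4.39, 4.91 and 4.80 in LFA and 4.24, 4.59, 4.57 and 4.15 in NTL, with no overlap between control and either. Such a separation downward was seen for 11.6% of probes in LFA and 13.8% in NTL. The Vgll2 call in LFA was lost in 12 of 35 other settings. The skeletal muscle markers fell in the same mice, as given above, and their part in the Vgll2 values was not tested. Vgll1 was well above background on 3 control arrays and on no NTL array, so the size of its change is not bounded. Its measured level differed from control by −1.44 in NTL (limma, adjusted p = 0.0437). That call was lost in 22 of 34 other settings.

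Cyr61 is the target gene among the members, and its promoter is shown because it holds the core letters that TEAD factors bind. In the RefSeq table of GRCm38.p6, where Cyr61 is listed as Ccn1, the 250 bases before its start are chr3:145649986-145650235 (minus strand). The letters GGAATG, the core that TEAD factors bind, or their reverse complement CATTCC, are in capitals, 97 bases before the start. All 9 members had an entry, and these letters were found in 4 of them on either strand, against 14.4% of 27025 genes in the same window. The matches in Wwtr1 (chr3:57576024-57576063), Yap1 (chr9:8004715-8004754) and Sav1 (chr12:69987086-69987125), all minus strand, are shown with 17 bases on each side. A match is a description of the letters, not a bound site.
Cyr61: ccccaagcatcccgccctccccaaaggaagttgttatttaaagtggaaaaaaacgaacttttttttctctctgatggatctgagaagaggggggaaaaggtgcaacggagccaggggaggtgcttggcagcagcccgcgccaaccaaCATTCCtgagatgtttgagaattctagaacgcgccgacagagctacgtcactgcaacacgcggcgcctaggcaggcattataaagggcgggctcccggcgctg
Wwtr1: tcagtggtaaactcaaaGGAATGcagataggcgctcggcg
Yap1: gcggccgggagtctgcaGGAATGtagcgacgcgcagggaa
Sav1: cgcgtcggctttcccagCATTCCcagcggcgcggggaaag

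Cyr61 did not differ between the groups beyond its spread. Its probe, at chr3:145310187-145310246 (NCBI37, minus strand), read 2.46, 2.03, 2.21 and 2.44 in control, 1.66, 2.80, 1.69 and 1.94 in LFA and 2.22, 2.75, 1.81 and 1.92 in NTL. SFA was at 2.54, 2.36, 2.37 and 3.26, the highest mean of the 5 groups, and NTS at 2.14, 2.83, 1.67 and 2.27. The values of LFA and NTL overlapped with control, with differences of −0.26 in LFA (interval −0.92 to 0.40) and −0.11 in NTL (−0.77 to 0.55). A 2-fold rise of Cyr61 lies outside both intervals. Unlike Wwtr1, Cyr61 had much the same spread without the 5 arrays of lowest index (0.43 on 20 arrays and 0.45 on 15).

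Among 20 other target genes of YAP and TAZ, 0 passed in LFA and 0 in NTL against control, beside 4.34% and 7.84% of all probes. The list medians were 0.08 and 0.24, above the medians of all probes (−0.28 and −0.25). Ctgf, the closest relative of Cyr61 among these target genes, differed from control by 0.14 in LFA and 0.49 in NTL, both with SE of 0.42. Ankrd1 differed by −0.51 and −0.21. In long against short fibers 2 of the 20 rose, beside 2391 of 36930 probes that passed and were higher. Ctgf rose by 0.93 (SE 0.30, limma, adjusted p = 0.0423), where the short-fiber groups were below control as well, by −0.53 in SFA and −0.71 in NTS. That call was lost in 16 of 33 other settings. Ccdc80, named after its values were seen, rose by 0.84 (SE 0.18, adjusted p = 0.00492).

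Cyr61 belongs to the CCN family of secreted matrix proteins, and 2 of the 5 family members tested, Wisp1 and Wisp2, rose in NTL. Of all probes tested, 3.8% passed and were higher there. Cyr61 itself differed by −0.11. Of the 5, 4 were higher than control in LFA and 4 in NTL. The family medians, which are the values of Nov, were 0.99 in LFA and 2.55 in NTL. Nov, named after its values were seen, did not pass in either. Wisp1 was at −2.15, −2.02, −1.41 and −1.69 in control and at 1.46, 1.87, −0.32 and 1.94 in NTL. Wisp2 was at −0.67, −1.23, −1.30 and −1.07 in control and at 1.96, 2.18, 0.73 and 2.39 in NTL. All NTL mice lay above all control mice for both genes, as was the case for 6.35% of probes. Wisp1 rose by 3.06 (SE 0.61, limma, adjusted p = 0.005) and Wisp2 by 2.88 (SE 0.61, adjusted p = 0.00778). In LFA, Wisp1 was at −0.59, 2.02, −1.80 and 0.14 and Wisp2 at −0.05, 2.87, −1.25 and 0.64, from within the control range to the highest value on any array. They did not pass in LFA (adjusted p = 0.0964 and 0.123). Fibroblast and matrix markers rose in the same groups, 2 of 9 in LFA and 6 of 9 in NTL, and their part in these values was not tested. The direct comparison of LFA with NTL gave −1.30 for Wisp1 and −1.26 for Wisp2, neither past the threshold.

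**Figure D4:**
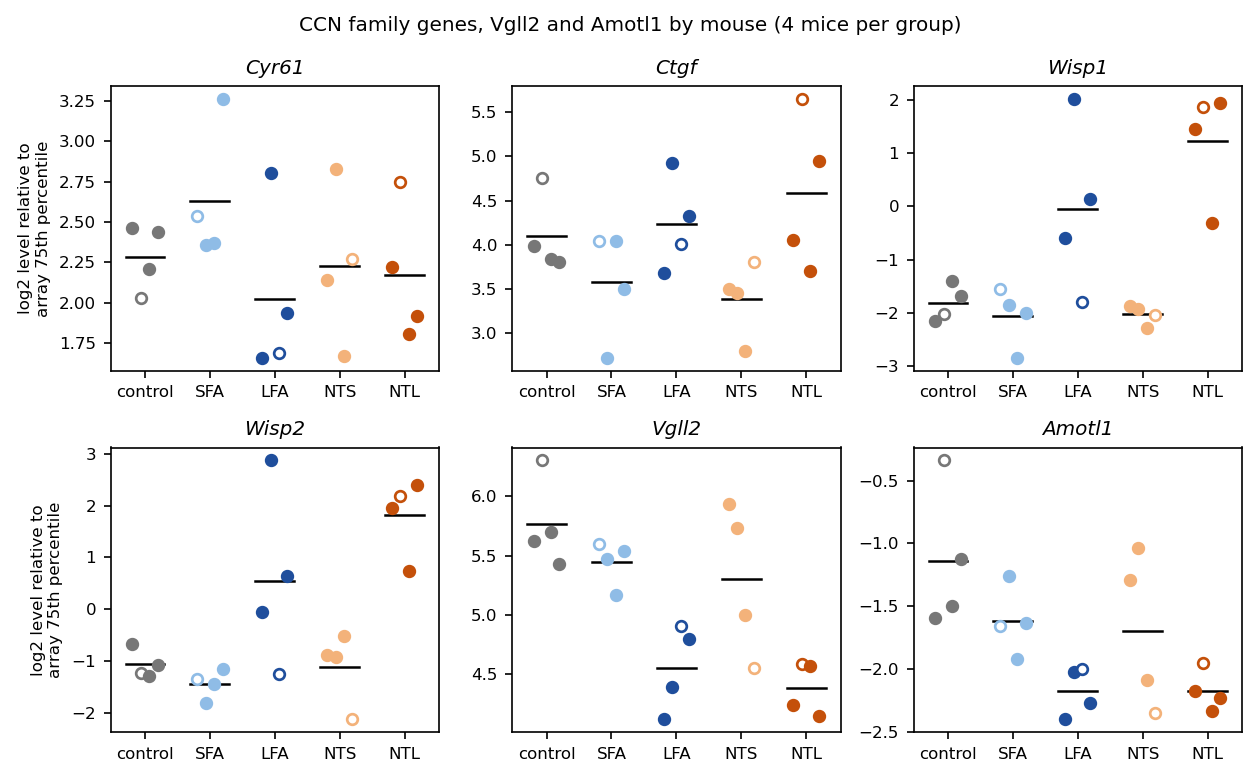
Log2 level relative to the 75th percentile of the array, by mouse, for Cyr61, its relatives Ctgf, Wisp1 and Wisp2, the TEAD cofactor Vgll2 and the YAP-binding protein Amotl1, with group means as bars and open circles for the array of lowest index in each group (4 mice each). Wisp1 and Wisp2 are higher in all NTL mice than in all control mice, Vgll2 is lower in all LFA and NTL mice than in all control mice, and Cyr61 overlaps.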

How the data were processed

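RNA from 20 diaphragms, 4 per group, was labeled with Cy3 and hybridized to 1-color Agilent arrays, which the authors scanned and extracted with Agilent Feature Extraction 10.7.3.1. The deposited scanner files hold intensity (background-corrected processed signal) for 59305 noncontrol spots. The table deposited by the authors, from GeneSpring, holds normalized log2 values as group means only, so it gave values without a test. Here each array's 75th percentile was subtracted from log2 of its processed signals, spots of a probe were averaged, and 36930 probes well above background on at least 4 arrays were fitted over all 20 arrays with limma 3.58.1 (R 4.3.3), with Benjamini-Hochberg adjustment over all of them. A probe passed at an adjusted p under 0.05. A gene is given by its brightest probe. The fit was tested on simulated data. The number of arrays limits precision.

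The named genes were all 9 members with their other probes, up to 5 genes per pathway list with the largest change among those that passed in LFA or NTL against control, and Ctgf, Ankrd1, Tead1 to Tead4, Stk3 and Stk4. The likeness search named 2 genes per member. Members and lists were chosen with earlier results of these data known.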

Additional observations from a re-analysis of the deposited data

Results flagged for a closer look

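Each of 11 probes was checked in each of 5 groups for 1 mouse far from its other 3 mice, 55 checks in all, of which chance alone flags about 1 in 20. There were 5 such values, from 4 mice. Wwtr1 was at −3.12 in control 2, with the nearest control mouse at 1.34. It was at −2.45 in LFA 3, with the nearest at 1.21, and at −1.16 in NTL 2, with the nearest at 1.53. Lats1 was at −3.63 in NTS 4, with the nearest at −2.75. Nf2 was at −0.27 in NTL 2 on the bright probe, with the nearest at 0.25. All 5 values are from the array of lowest 5′ to 3′ index in their group. No member had all mice of one fiber group on one side of the control mean and all mice of another on the other side, in 54 pairs.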

How the results depend on the processing

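For LFA against control the count of members past the threshold was 0, and it became 1, Bap1, with normexp, with the filter on all arrays, with probes averaged by gene and with the 5′ to 3′ index as a covariate. For NTL it went from 1 to 0 with quantile normalization, median centring, no filter, slide or scan day as a block, array brightness as a covariate, only the groups compared, the methods' test between 2 groups, and without the array of lowest index in each group, an alternative chosen after seeing the data. With the replicate number as a block it was also 0 in NTL (limma, Bap1, NTL versus control, −0.67, adjusted p = 0.0649), and the block changed no other call of a member. The labels do not say whether same-numbered mice were paired, and the main fit did not pair them. Deviations of same-numbered mice from the group means correlated at −0.033 on average (−0.676 to 0.689). Of 20 arrays, 4 correlated best with their own number, which does not settle whether mice were paired. For long against short fibers it went from 0 to 1 with normexp, the filter on all arrays, averaging by gene and the index covariate. Leaving out 1 array at a time gave 0 to 1 in each of LFA, NTL and long against short fibers. In LFA the 1 was without NTS 2 or NTS 4, and in long against short fibers without control 2 or NTS 4. Bap1 in LFA lay between −0.79 and −0.58 over all 35 settings, and between −0.75 and −0.51 in NTL. The other 6 comparisons gave 0 throughout. Of 2790 values of a member under another setting, 184 changed sign, none past the threshold. With array brightness as a covariate, Wwtr1, LFA versus control, was −1.25 and Wwtr1, NTL versus control, was −1.01, neither past the threshold. The filter on all arrays left out Lats1. The table of group means gave no test. Signal over background limits Lats1, the dim Nf2 probe and Vgll1.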
